A study of Mus musculus with 19 samples.

Results

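miR-129 is a brain microRNA made from a pair of hairpin precursors, and its mature products were followed here across 7 groups of mouse brain libraries. The 3 miR-129 names in the table, miR-129-1-3p, miR-129-2-3p and miR-129-5p, were taken by name out of 528 microRNA names. Earlier results of these data were known when they were chosen. Small RNAs of 19 to 24 nt bound to Argonaute 2 (Ago2), the protein that carries mature microRNAs, were immunoprecipitated and sequenced in 19 libraries. Whole cerebellum and whole neocortex, 3 libraries each, were precipitated with an antibody to Ago2 itself. The other 5 groups were precipitated with an antibody to the myc tag of a tagged Ago2 present in 1 cell class. They were Purkinje, Camk2a and Gad2 with 3 libraries each, and PV and SST with 2 each. Purkinje cells are the output neurons of the cerebellar cortex, and Camk2a marks excitatory neurons. Gad2 marks GABAergic neurons, and PV and SST mark subsets of GABAergic neurons that make parvalbumin or somatostatin. In such tagging, a Cre driver turns on the tagged Ago2, so a group holds the cells its driver marks. No allele is named for the animals in the sources used here.

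All mice were at postnatal day 56. Cerebellum and Purkinje libraries came from C57BL/6 and black swiss stock, Neocortex and Camk2a libraries from C57BL/6 and BALB/c, and Gad2, PV and SST libraries from C57BL/6 and 129. Each Cerebellum, Neocortex and Camk2a library was from 1 tissue, each Purkinje library from 3 pooled tissues, and each Gad2, PV and SST library from 4. Antibody and, for all but Camk2a, pooling differ between a cell class and its tissue, and strain also differs between Gad2 and Neocortex, so their parts in those comparisons cannot be told apart from cell class. The sources used here do not say that the libraries of a group came from separate animals, so p-values measure the spread between libraries, which may be technical.

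A microRNA hairpin is cut into a duplex with a 5p and a 3p arm, and Ago2 keeps one strand of it as the guide. The guide pairs with messenger RNAs mainly through its seed, bases 2 to 8 from the 5′ end, and lowers their translation and stability. Arms of the same hairpin have different seeds and so different targets. miR-129 is enriched in brain and is known there for control of neuronal excitability, including a dendritic potassium channel messenger RNA, Kcna1, as a target.

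The sequences show why the members can report on the hairpins unequally. RefSeq held the mature sequence for 2 of the 3 names, printed here 5′ to 3′ with the seed in capitals, together with the stretch of the Mir129-1 hairpin that lines up with miR-129-2-3p, where the capital marks its single different base.
miR-129-5p: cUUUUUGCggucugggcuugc
miR-129-2-3p: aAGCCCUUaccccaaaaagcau
Mir129-1 3p stretch: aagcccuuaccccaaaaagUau
The 3p stretch of Mir129-1 matches miR-129-2-3p at 21 of 22 bases. The substitution is C20U, counted from 1 at the 5′ end of miR-129-2-3p, so the seed AGCCCUU is the same in both. Reads of 19 nt that begin at base 1 do not reach base 20. The labels do not say how reads that match both hairpins were assigned, and this bears on every comparison of the 3p arms. The 21 bases of miR-129-5p are identical in both hairpins, so its reads do not tell the precursors apart.

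The whole hairpins are shown next, with the 5p arm and the 3p stretch in capitals, since their loops and flanks are where they differ most.
Mir129-1: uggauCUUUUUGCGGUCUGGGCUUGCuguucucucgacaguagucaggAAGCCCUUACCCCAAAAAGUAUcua
Mir129-2: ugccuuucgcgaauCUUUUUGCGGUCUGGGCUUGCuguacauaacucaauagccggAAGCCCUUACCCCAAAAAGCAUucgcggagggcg
Mir129-1 is 73 bases long with 22 bases between its arms, and Mir129-2 is 90 bases long with 21. Mir129-1 lies at chr6:29022619-29022691 on the plus strand of GRCm38.p6, in the exon of the single annotated transcript of the lincRNA Gm3294. Mir129-2 lies at chr2:94241364-94241453 on the minus strand, in introns of 3 of the 7 transcripts of the lincRNA Mir670hg and in an exon of none. Another annotated microRNA gene, Mir129b, lies within it on the plus strand (chr2:94241378-94241442). Those positions come from RefSeq and GENCODE, while the deposited values were made on mm9 and carry no coordinates. Neither seed occurs in another of the 1679 mature mouse sequences searched. That set has no entry for miR-129-1-3p, and the 3p stretch of Mir129-1 carries the same seed as miR-129-2-3p.

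The libraries held 1229834 to 14249087 reads assigned to the listed microRNAs, an 11.6-fold range. Values are given as RPM, reads of a name per 1000000 of these reads, and so as a share of the Ago2-bound pool. In whole tissue a lower share cannot be split into fewer cells of a type and less microRNA per cell. Each of the 3 members was detected in every library, with at least 79 reads, and 3 reads correspond to 0.211 to 2.44 RPM. All 3 are among the 522 names tested. Both 3p arms and the 5p arm differed between the 7 groups in limma with Benjamini-Hochberg adjustment over all 522 names, with adjusted p = 1.96e-09 for miR-129-1-3p, 1.31e-15 for miR-129-2-3p and 8.26e-09 for miR-129-5p. Of all tested names, 87.2% differed in the same way, so a difference somewhere is common in these data.

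The cell-class libraries were below whole tissue in blood, microglial and vascular microRNAs, but not in every list of other cell types. The summed blood and microglial list (miR-451, miR-144, miR-142-3p, miR-142-5p, miR-150 and miR-223) was 2474 to 2964 RPM in Cerebellum and 1786 to 4035 in Neocortex. It was 11.4 to 66.1 RPM in the 5 cell classes, and of its 6 members only miR-142-3p was at 0 in a group, SST. The vascular sum, over the 3 of 4 listed names present, was 5810 to 6312 RPM in Cerebellum and 323 to 424 in Purkinje. The oligodendrocyte sum, also over 3 of 4 names, was 2740 to 3248 RPM in Purkinje against 3362 to 3563 in Cerebellum. The choroid and ependymal sum, over 3 of 4 names, was 65.6 to 96.0 RPM in Neocortex and no lower in mean in the neocortical classes, at 66.3 to 91.4 in Camk2a, 94.1 to 115 in Gad2, 115 to 132 in PV and 414 to 419 in SST. The neuronal list, 18 of 18 present and led by miR-124, was 298076 to 493065 RPM over the 7 groups.

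miR-129-2-3p, the arm named for the Mir129-2 hairpin, was the most abundant member in 16 libraries. It was the scarcest in the other 3, all of them Purkinje. Cerebellum libraries had 9637, 10779 and 9021 RPM. Camk2a libraries had 6216, 5056 and 4625 RPM, and Neocortex libraries 2679, 4721 and 4267. Gad2 libraries had 3088, 3392 and 3972 RPM. The Neocortex range overlapped both the Camk2a and the Gad2 range, and Cerebellum lay above all 3. SST libraries had 1426 and 1206 RPM, PV libraries 982 and 1191, and Purkinje libraries 104, 74.1 and 62.2. The Purkinje values rest on 185 to 214 reads each and lie below every other library. Group means fell from 9812 ± 892 RPM (SD, n = 3) in Cerebellum to 79.98 ± 21.4 (SD, n = 3) in Purkinje, a 123-fold range.

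Along that order, 3 neighbouring pairs differed beyond their spread in limma: Cerebellum over Camk2a (adjusted p = 0.000774), Gad2 over SST (adjusted p = 0.000261) and PV over Purkinje (adjusted p = 4.20e-11). The shares of all tested names called in the same direction were 31.8%, 5.94% and 27.6%. Camk2a and Neocortex (adjusted p = 0.0703), Neocortex and Gad2 (0.664) and SST and PV (0.482) did not pass. The step from PV, the next lowest group, to Purkinje was 13.8-fold, the widest between neighbours for this arm.

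miR-129-1-3p, the arm named for the Mir129-1 hairpin, was much scarcer than miR-129-2-3p in every group except Purkinje. Cerebellum libraries had 1786, 1772 and 1322 RPM. Neocortex libraries had 334, 725 and 473 RPM, and Camk2a libraries 436, 535 and 372. The Camk2a range lies inside the Neocortex range, and both lie far below Cerebellum. Purkinje libraries had 294, 329 and 183 RPM, Gad2 libraries 147, 195 and 262, and PV libraries 170 and 179. Purkinje thus lay among the other groups for this arm, overlapping Gad2. SST libraries were lowest at 61.8 and 102 RPM, where the first rests on 79 reads (exact Clopper-Pearson 95% interval 48.9 to 77.0 RPM, counting error only). Group means ran from 1626.5 ± 264 RPM (SD, n = 3) in Cerebellum to 82.0 ± 28.5 (SD, n = 2) in SST, a 19.8-fold range.

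For miR-129-1-3p, Cerebellum exceeded Neocortex (adjusted p = 2.73e-05), Camk2a exceeded Purkinje (0.0259) and PV exceeded SST (0.0176), all by limma. The shares of all names called in those directions were 19.5%, 32.6% and 4.02%. The pairs Neocortex and Camk2a (adjusted p = 0.718), Purkinje and Gad2 (0.228) and Gad2 and PV (0.811) did not pass. The Camk2a over Purkinje step of 1.70-fold was lost without Camk2a replicate 1 or 2 or without Purkinje replicate 3.

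miR-129-5p, the arm both hairpins share, had the narrowest range of the 3 and another order. Camk2a libraries were highest at 916, 1095 and 959 RPM, and Cerebellum libraries followed at 783, 868 and 726. SST libraries had 493 and 444 RPM and PV libraries 392 and 335. Gad2 libraries had 454, 275 and 262 RPM, so that replicate 1 lay above both PV libraries and the other two below. Neocortex libraries had 198, 242 and 351 RPM and Purkinje libraries 187, 193 and 185. The 3 Purkinje values were the tightest of any group, at 188 ± 4.01 RPM (SD, n = 3). The highest group mean, 990.2 ± 92.95 RPM (SD, n = 3) in Camk2a, was 5.27 times the lowest.

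With all libraries, only the step from Cerebellum to SST passed between neighbours for miR-129-5p (1.69-fold, limma adjusted p = 0.00732, with 25.9% of names called higher in Cerebellum), and it was lost without SST replicate 2 (adjusted p = 0.0598). The other 5 steps gave adjusted p of 0.0721 to 0.681. Some of these steps passed in single alternatives: Camk2a over Cerebellum by edgeR (log2 difference -0.60 for Cerebellum against Camk2a, adjusted p = 0.0184), Neocortex over Purkinje without Neocortex replicate 1 (-0.63 for Purkinje against Neocortex, adjusted p = 0.0159) and Gad2 over Neocortex without Neocortex replicate 3 (0.55, adjusted p = 0.0376). With all libraries no neighbours from SST down to Purkinje passed in limma, while SST and Purkinje themselves differed 2.49-fold (adjusted p = 6.25e-05, with 38.7% of names called lower in Purkinje).

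**Figure D1:**
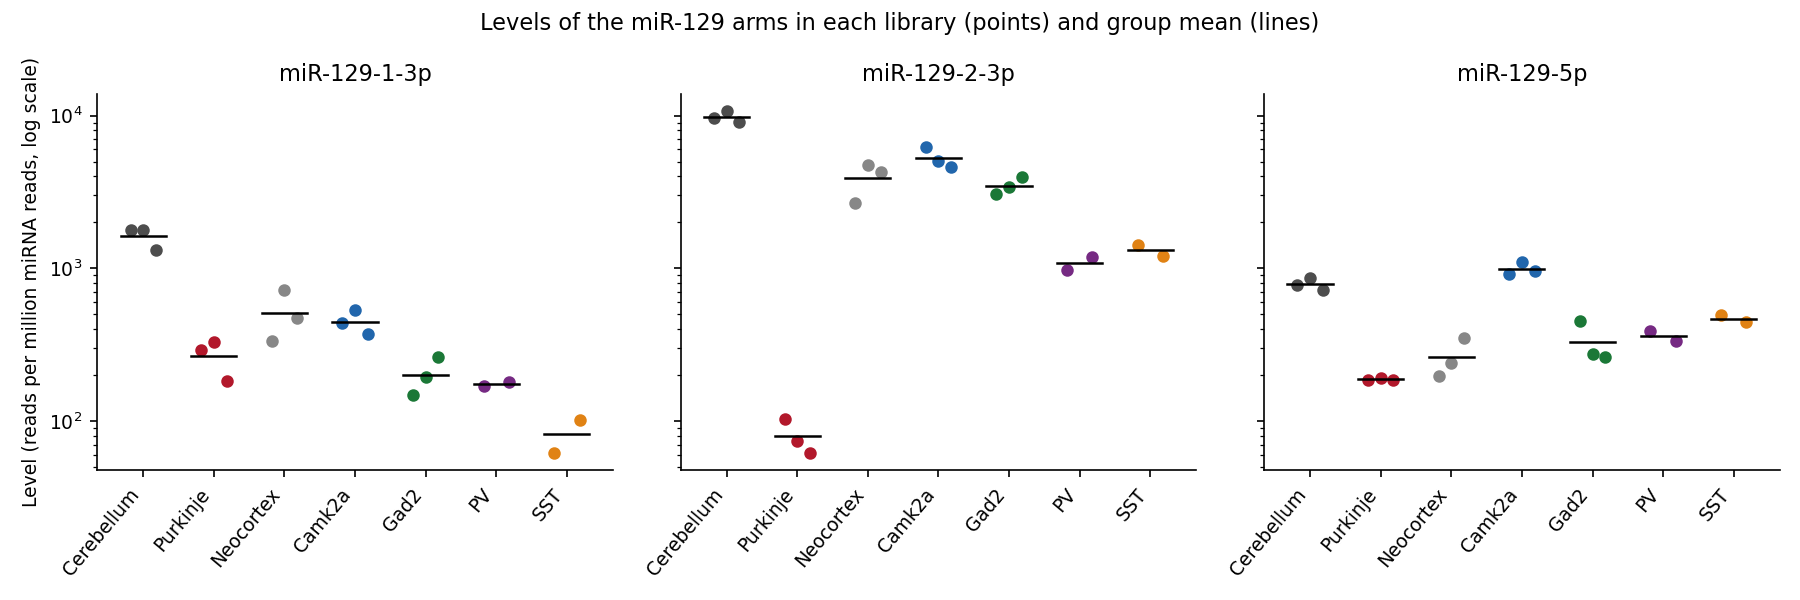
RPM of the 3 miR-129 arms (vertical axes, log scale) in each of the 19 libraries (points) by group, with a line at each group mean. The Purkinje libraries drop to 62.2 to 104 RPM for miR-129-2-3p alone, while for miR-129-1-3p and miR-129-5p they stay within the range or just under the lowest of the other groups.

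In whole tissue, all 3 arms were higher in Cerebellum than in Neocortex, with no overlap between libraries. The tissues also differ in stock (black swiss against BALB/c), and region and stock cannot be told apart here. The log2 difference was 1.73 ± 0.28 (SE) for miR-129-1-3p, or 3.32-fold. It was 1.37 ± 0.21 (SE) for miR-129-2-3p, or 2.59-fold (limma adjusted p = 1.20e-05), and 1.63 ± 0.21 (SE) for miR-129-5p, or 3.08-fold (adjusted p = 1.39e-06). The share of tested names called higher here was 19.5%, and the median difference of all 522 names was -0.40. Higher names made up 35.2% of all calls, and 46.4% with TMM factors, which rescale each library to the bulk of its names. The share was 37.1% by edgeR and 46.8% by DESeq2. In the neuronal list, 2 of 18 members were higher and 12 lower in Cerebellum, with a median of -1.26, while 36% of all names were called lower. miR-128, a forebrain-rich neuronal microRNA in that list, was 4.07-fold lower in Cerebellum (adjusted p = 2.53e-08), while miR-9, a microRNA of neural progenitors and neurons, was 1.90-fold higher (adjusted p = 1.08e-05). The lists of other cells were mixed. All 3 choroid and ependymal names were higher in Cerebellum, led by miR-204 (25.1-fold, limma adjusted p = 3.83e-11), with a sum of 1338 to 1827 RPM against 65.6 to 96.0. Of the oligodendrocyte names 2 of 3 were higher and none lower. Of the vascular names 1 of 3, miR-143, was 2.48-fold lower (adjusted p = 1.20e-06) and none was higher. Of the blood and microglial names 1 of 6, miR-150, was higher (2.67-fold) and none lower. The part of these cells was not tested.

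In Purkinje cells all 3 arms were lower than in whole Cerebellum, but to very different depths. miR-129-1-3p fell by 2.63 ± 0.28 (SE) on the log2 scale, 6.17-fold (limma adjusted p = 6.30e-08), and miR-129-5p fell by 2.07 ± 0.21 (SE), 4.20-fold (adjusted p = 2.43e-08). miR-129-2-3p fell by 6.97 ± 0.21 (SE), the sixth lowest change of the 522. Of all names, 37.4% were called lower in this comparison. Purkinje kept 16.5% of the Cerebellum level of miR-129-1-3p, 23.7% of miR-129-5p and 0.815% of miR-129-2-3p.

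The lists of other cells give a scale for those shares. In the same libraries Purkinje kept 88.3% of the Cerebellum oligodendrocyte sum, 6.03% of the vascular sum and 1.85% of the blood and microglial sum. It kept 0.908% of the choroid and ependymal sum (1338 to 1827 RPM in Cerebellum, 10.7 to 17.4 in Purkinje), over 3 of 4 listed names. Single names carried most of 2 sums. miR-338-3p averaged 2946 RPM in Purkinje and 3335 in Cerebellum, while miR-338-5p was 1.49-fold lower in Purkinje (limma adjusted p = 0.0126). miR-219-5p did not pass (adjusted p = 0.406). miR-204 averaged 8.27 RPM in Purkinje and 1472 in Cerebellum, 187-fold lower, beside 13.4-fold for miR-34c and 17.8-fold for miR-34b-5p. The value for miR-129-2-3p lies beside that of the choroid sum, mainly miR-204, and far below that of the oligodendrocyte sum. The part of other cells in the result was not tested. In the neuronal list, 6 of 18 members were higher and 10 lower in Purkinje, with a median of -0.68 beside -0.19 for all names, of which 31.2% were called higher.

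**Figure D2:**
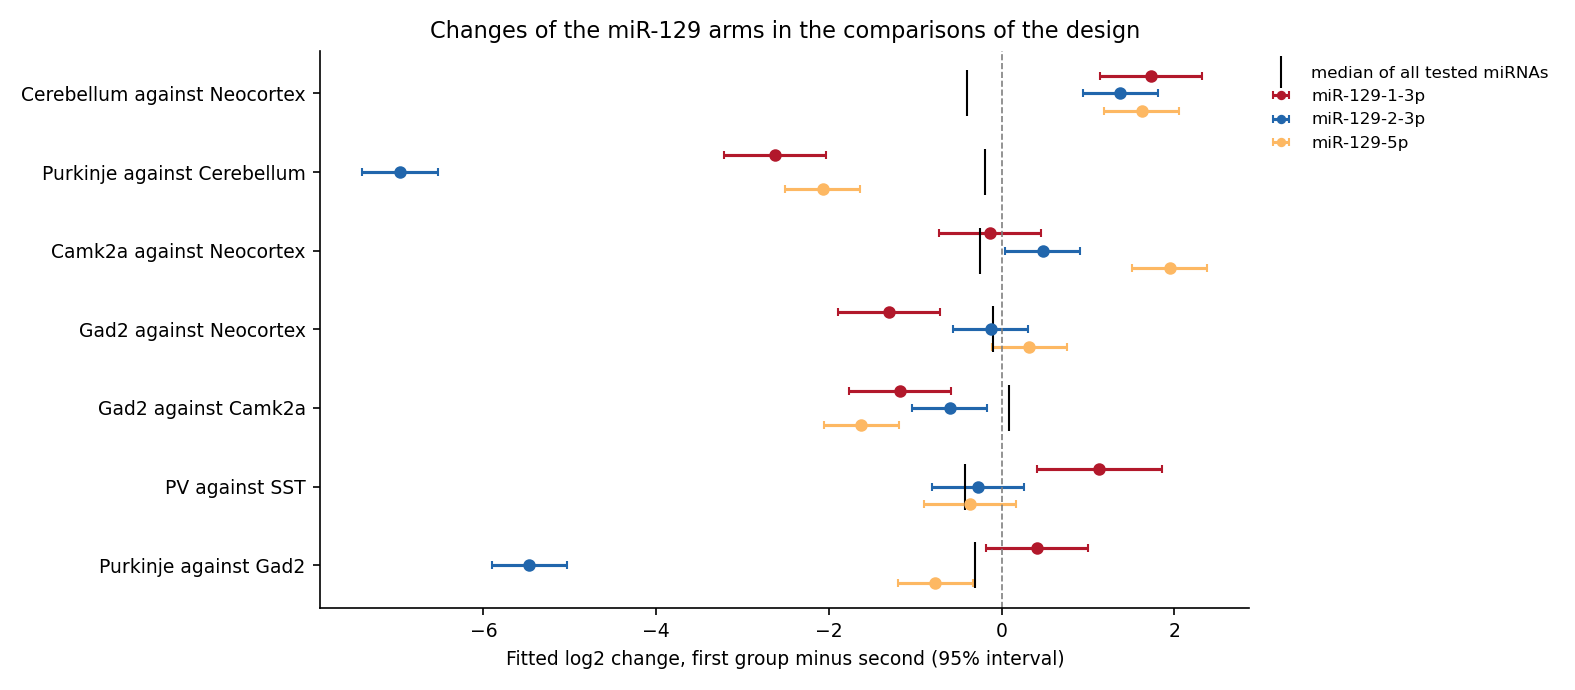
Fitted log2 change with its 95% interval (horizontal axis) of each miR-129 arm in the 7 comparisons (rows), with the median of all 522 tested names as a black tick. miR-129-2-3p stands at -6.97 in Purkinje against Cerebellum and -5.47 in Purkinje against Gad2, while all other points lie between -2.63 and 1.95.

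In Camk2a neurons the 5p arm alone was called different from whole Neocortex. miR-129-5p was higher in all 3 Camk2a libraries than in any Neocortex library, by 1.95 ± 0.21 (SE) on the log2 scale (limma adjusted p = 2.97e-07), the 13th highest change of the 522. The share of tested names called higher was 16.9%. miR-129-2-3p differed by 0.48 (95% interval 0.04 to 0.91, adjusted p = 0.0703), with overlapping libraries. This value passed with TMM factors, edgeR or DESeq2 and without Neocortex replicate 2. miR-129-1-3p differed by -0.13 (95% interval -0.72 to 0.46, adjusted p = 0.718), and its sign changed with the same alternatives. miR-128 in the same libraries was 1.97-fold higher in Camk2a (adjusted p = 0.000417), and 8 of 18 neuronal names were higher and 5 lower. Of all names, 28% were called lower, and higher names made up 37.6% of the calls, or 51.1% with TMM factors. The vascular sum was 934 to 993 RPM in Camk2a against 7841 to 8178 in Neocortex, and the oligodendrocyte sum 665 to 799 against 2069 to 3278. The part of those cells in the comparison was not tested.

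Of the 3 arms, miR-129-1-3p alone was called different in Gad2 against Neocortex. It was 2.48-fold lower in Gad2 than in Neocortex, by -1.31 ± 0.28 (SE) on the log2 scale (limma adjusted p = 0.000797), with no overlap. Of all names, 24.3% were called lower. miR-129-2-3p differed by -0.13 (95% interval -0.56 to 0.31, adjusted p = 0.664) and miR-129-5p by 0.32 (95% interval -0.11 to 0.76, adjusted p = 0.225). Both intervals include 0, and the first changed sign with TMM factors and without Neocortex replicate 2. Of the neuronal list, 4 of 18 names were higher and 9 lower in Gad2, where 20.7% of all names were called higher, and miR-128 was 8.92-fold lower (adjusted p = 7.68e-11). The vascular sum was 295 to 354 RPM in Gad2 and the oligodendrocyte sum 679 to 731, both below their Neocortex ranges. The choroid and ependymal list went the other way in 2 of 3 names, miR-34c (4.63-fold higher) and miR-34b-5p (3.46-fold higher), while miR-204 was 2.94-fold lower, and the part of these cells was not tested.

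Set directly against Camk2a, Gad2 had less of all 3 arms, while 16.7% of all names were called lower. The difference was -1.63 ± 0.21 (SE) for miR-129-5p, 3.08-fold (limma adjusted p = 3.03e-06). It was -1.17 ± 0.28 (SE) for miR-129-1-3p, 2.26-fold (adjusted p = 0.00247). For miR-129-2-3p it was -0.60 ± 0.21 (SE), 1.52-fold (adjusted p = 0.0277), a call lost without Camk2a replicate 1 or 2 or without Gad2 replicate 1 or 2 (adjusted p from 0.0599 to 0.129). In the neuronal list, 4 of 18 names were higher and 8 lower, beside 21.5% of all names called higher. The vascular list moved with the arms, with 2 of 3 names lower in Gad2 (miR-126-3p 3.02-fold and miR-126-5p 4.45-fold) and sums of 295 to 354 RPM against 934 to 993 in Camk2a. Of the choroid and ependymal names, 2 of 3 were higher in Gad2 and miR-204 was lower, and the part of either list was not tested. All libraries were made with the same antibody, but Camk2a libraries came from 1 tissue and BALB/c stock and Gad2 libraries from 4 tissues and 129 stock, and cell class, strain and pooling cannot be told apart here.

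Within the GABAergic groups, both PV and SST were lower than Gad2 in miR-129-2-3p. The difference was 3.20-fold for PV (limma adjusted p = 1.17e-05, with 14.6% of names called higher in Gad2) and 2.64-fold for SST (adjusted p = 0.000261, with 5.94% called higher in Gad2). Gad2 also exceeded SST in miR-129-1-3p (2.47-fold, adjusted p = 0.00479), a call lost without SST replicate 1 (adjusted p = 0.107). The vascular sum was 295 to 354 RPM in Gad2, 295 to 330 in PV and 734 to 766 in SST. Its names did not move alike: miR-143 averaged 39.2 RPM in Gad2, 94.5 in PV and 45.5 in SST. miR-126-3p averaged 229, 176 and 555 RPM, and miR-126-5p 47.9, 41.4 and 150. The part of this list was not tested. The marked classes overlap, since PV and SST neurons also express Gad2.

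Between PV and SST, miR-129-1-3p alone passed. It was 170 and 179 RPM in PV against 61.8 and 102 in SST, a log2 difference of 1.13 ± 0.35 (SE) and 2.19-fold (limma adjusted p = 0.0176). Without PV replicate 1 or 2 or SST replicate 1 the adjusted p rose to 0.0719, 0.0860 and 0.208. miR-129-2-3p (-0.28, adjusted p = 0.482) and miR-129-5p (-0.37, adjusted p = 0.326) did not pass, and both turned positive with TMM factors, edgeR or DESeq2. The SST libraries stood apart in scaling, with TMM factors of 1.42 and 1.53 where the other 17 libraries had 0.759 to 1.16. Such scaling moved the median difference of all names between PV and SST from -0.42 to 0.11. Of all names, 4.02% were called higher and 25.1% lower in PV. Higher names thus made up 13.8% of the calls, or 51.7% with TMM factors, 36.6% by edgeR and 42.6% by DESeq2. The choroid and ependymal sum was 115 to 132 RPM in PV and 414 to 419 in SST, and the vascular sum 295 to 330 and 734 to 766. The vascular names split. miR-143 was 2.07-fold higher in PV (limma adjusted p = 0.000434), while miR-126-3p was 3.15-fold and miR-126-5p 3.63-fold lower. The part of either list was not tested. In the neuronal list, 2 of 18 names were higher and 8 lower, and miR-124, the most abundant neuronal microRNA, was 2.22-fold higher (adjusted p = 8.61e-05).

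Purkinje and Gad2, both GABAergic classes precipitated with the same antibody but from cerebellum and neocortex, had their widest difference among the 3 arms in miR-129-2-3p. They also differ in stock (black swiss against 129) and in pooling (3 against 4 tissues), and region, stock, pooling and cell class cannot be told apart here. It was lower in Purkinje by 5.47 ± 0.21 (SE) on the log2 scale, 44.3-fold (limma adjusted p = 9.32e-15), with 34.5% of names called lower. miR-129-5p was 1.70-fold lower (adjusted p = 0.00377). miR-129-1-3p differed by 0.41 (95% interval -0.18 to 1.00, adjusted p = 0.228), a value that passed as higher in Purkinje by edgeR (0.60, adjusted p = 0.0382) and DESeq2 (0.67, adjusted p = 0.0199). In the neuronal list, 2 of 18 names were higher and 13 lower in Purkinje, beside 20.5% of all names called higher. Higher names made up 37.3% of the calls, or 45.4% with TMM factors, 47.6% by edgeR and 50.7% by DESeq2. The oligodendrocyte sum was 2740 to 3248 RPM in Purkinje and 679 to 731 in Gad2, while the choroid and ependymal sum went with miR-129-2-3p, at 10.7 to 17.4 against 94.1 to 115 RPM with all 3 names lower in Purkinje. The part of these cells was not tested. The miR-129-2-3p level in Purkinje was also below every other cell class, by 16.8-fold against SST (adjusted p = 6.84e-12) and 67.2-fold against Camk2a (adjusted p = 8.97e-16).

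The ratio of the 3p arms compares the arms named for each hairpin within a library, so that it does not depend on how libraries are scaled. It does depend on how reads that match both hairpins were assigned, which is not stated. RPM levels are not scaled to length. The matched mature sequences are 21 bases for miR-129-5p and 22 for miR-129-2-3p, and none was found for miR-129-1-3p. Reads of miR-129-2-3p per read of miR-129-1-3p were 5.40, 6.08 and 6.83 in Cerebellum and 8.03, 6.51 and 9.02 in Neocortex. They were 14.3, 9.45 and 12.4 in Camk2a and 20.98, 17.4 and 15.1 in Gad2. PV gave 5.79 and 6.65, within the Cerebellum range, and SST 23.1 and 11.8. In Purkinje the ratio was 0.353, 0.225 and 0.339. The order of the arms was therefore reversed in the 3 Purkinje libraries, and miR-129-2-3p exceeded miR-129-1-3p in the other 16.

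As a share of the 3p reads, miR-129-1-3p was 76.7% ± 4.23 (SD, n = 3) in Purkinje and 14.2% ± 1.43 (SD, n = 3) in Cerebellum. Shares in the other groups averaged 5.40% in Gad2 to 13.9% in PV. The log2 ratio of miR-129-1-3p to miR-129-2-3p was higher in Purkinje than in Cerebellum by 4.34 ± 0.29 (SE), a 20.2-fold shift (limma adjusted p = 1.99e-09) and the fourth widest of the 183 ratios tested. Both miR-129 ratios differed between the 7 groups, with adjusted p = 1.90e-10 for the 3p arms and 3.13e-07 for 5p to 3p, as did 73.8% of the 183. Those 183 are 172 ratios of the arms of 1 hairpin and 11 ratios of sister hairpins, and 21.9% of them were called higher in this comparison. Against the other 5 groups the shift in Purkinje was 20.7-fold (PV) to 58.9-fold (Gad2), with adjusted p from 1.04e-11 to 1.15e-08. The shares of ratios called higher in Purkinje were 13.7% against PV, 13.1% against SST, 14.2% against Gad2, 16.4% against Camk2a and 26.2% against Neocortex. The Purkinje shift against Cerebellum ranged from 4.13 to 4.46 over all alternatives.

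Smaller shifts of the 3p ratio were found within the neocortical groups. Gad2 had 2.27-fold less miR-129-1-3p per miR-129-2-3p than Neocortex (limma adjusted p = 0.00670, with 4.37% of ratios called lower), and without Gad2 replicate 1 the adjusted p was 0.0525. PV had 2.65-fold more than SST (adjusted p = 0.0278, with 2.73% called higher), a call lost without PV replicate 1 or 2 or SST replicate 1, and 2.85-fold more than Gad2 (adjusted p = 0.00440, with 4.37% called lower in Gad2), a call lost without PV replicate 1 (adjusted p = 0.0866). Camk2a against Neocortex (-0.61, adjusted p = 0.104), Gad2 against Camk2a (-0.57, adjusted p = 0.271) and Cerebellum against Neocortex (0.36, adjusted p = 0.378) did not pass. Over the 7 groups the log2 ratio spanned 5.88, the second widest range of the 11 sister pairs, where 9 of 11 (81.8%) differed between groups. The widest range, 10.1, was that of miR-135a-1* to miR-135a-2*, and the sign of the log2 ratio changed between groups in 3 of the 11 pairs, those of miR-129, miR-135a and miR-30c. Pairs could enter with an average of 5 reads per name, so a range or sign change can rest on few reads.

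**Figure D3:**
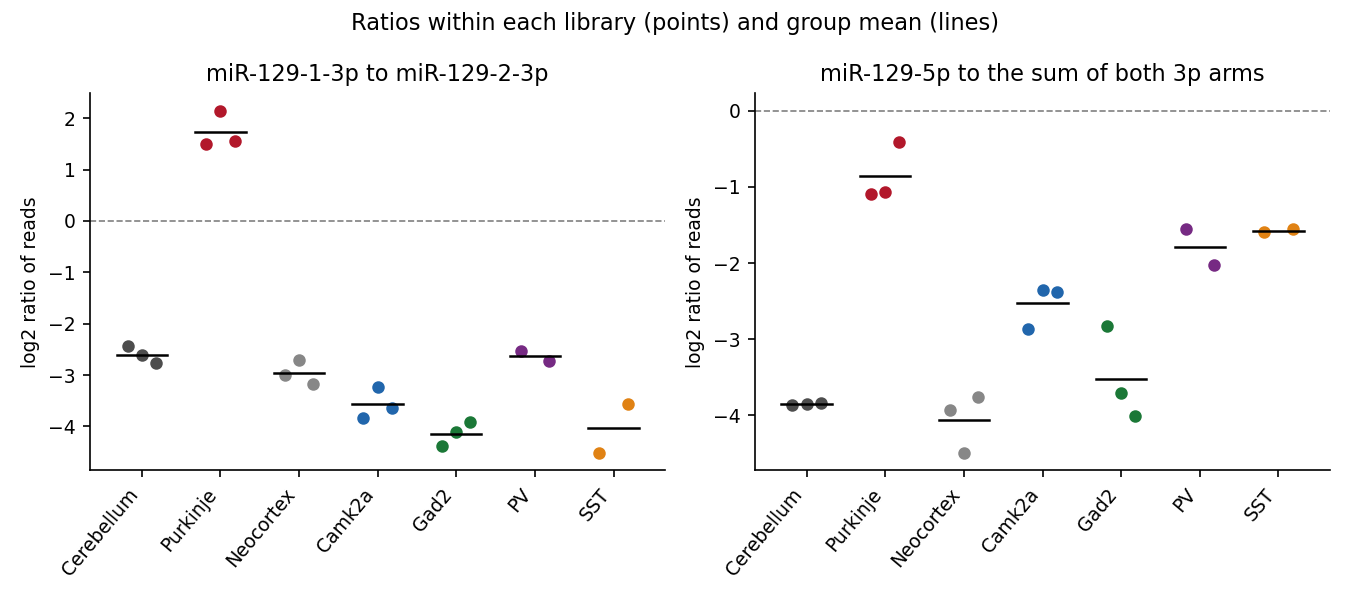
Ratio of miR-129-1-3p to miR-129-2-3p reads and of miR-129-5p to the summed 3p reads as log2 values (vertical axes) in each library (points), with a line at each group mean and a dashed line at equal reads. For the 3p arms the 3 Purkinje libraries lie above the dashed line, at ratios of 2.84 to 4.44, and the other 16 libraries lie below it.

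The ratio of the shared 5p arm to the summed 3p arms compares the strands found on Ago2 over both hairpins together. Its 5p reads cannot be assigned to a hairpin, so it is not independent of the mix of the 3p arms. Reads of 5p per read of miR-129-1-3p averaged 0.743 in Purkinje and 0.493 in Cerebellum. Per read of miR-129-2-3p they averaged 2.46 and 0.0808. A change of strand within either hairpin was not tested. The summed 3p arms exceeded the 5p arm in every library. Cerebellum libraries had 0.0686, 0.0692 and 0.0702 reads of 5p per 3p read, the tightest group, and Neocortex libraries 0.0658, 0.0444 and 0.0741. Gad2 libraries had 0.140, 0.0767 and 0.0619, and Camk2a libraries 0.138, 0.196 and 0.192. PV libraries had 0.340 and 0.245, and SST libraries 0.331 and 0.340. Purkinje libraries were highest at 0.469, 0.478 and 0.753. The cerebellar and neocortical tissues thus had nearly the same ratio, and the cell classes lay above it apart from Gad2, whose replicate 3 was within the Neocortex range.

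In limma over the same 183 ratios, the log2 ratio was higher in Purkinje than in Cerebellum by 3.00 ± 0.31 (SE), 7.98-fold (adjusted p = 9.97e-07). It was higher in Camk2a than in Neocortex by 1.53 ± 0.31 (SE), 2.88-fold (adjusted p = 0.00149, with 17.5% of ratios called higher). PV and SST were above Gad2 by 3.30-fold (adjusted p = 0.00358, with 4.37% called lower in Gad2) and 3.84-fold (adjusted p = 0.00265, with 5.46% called lower in Gad2), where the first was lost without PV replicate 1 (adjusted p = 0.0866). Purkinje was 6.33-fold above Gad2 (adjusted p = 2.96e-06). Purkinje did not pass against PV (0.94, 95% interval 0.20 to 1.68, adjusted p = 0.0535) or SST (0.72, 95% interval -0.02 to 1.46, adjusted p = 0.140), nor did Cerebellum against Neocortex (0.21, adjusted p = 0.677), Gad2 against Neocortex (0.54, adjusted p = 0.228) or PV against SST (-0.22, adjusted p = 0.826). Gad2 against Camk2a gave -0.99 (adjusted p = 0.0779).

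The makeup of the miR-129 reads joins both ratios. In Cerebellum, 80.3% of them were miR-129-2-3p, 13.3% miR-129-1-3p and 6.48% miR-129-5p. In Gad2 miR-129-2-3p took 86.6% and in Camk2a 78.5%. In Purkinje miR-129-1-3p took 49.4% ± 6.35 (SD, n = 3), miR-129-5p 35.7% ± 6.25 and miR-129-2-3p 14.9% ± 2.68. miR-129-5p took 25.1% in SST and 22.5% in PV, against 5.77% in Neocortex. The sum of the 3 arms was 12232 ± 1175 RPM (SD, n = 3) in Cerebellum, 6737 ± 807 in Camk2a, 4663 ± 1292 in Neocortex, 4016 ± 425 in Gad2, 1866 ± 161 (n = 2) in SST, 1624 ± 115 (n = 2) in PV and 537 ± 92.2 in Purkinje.

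**Figure D4:**
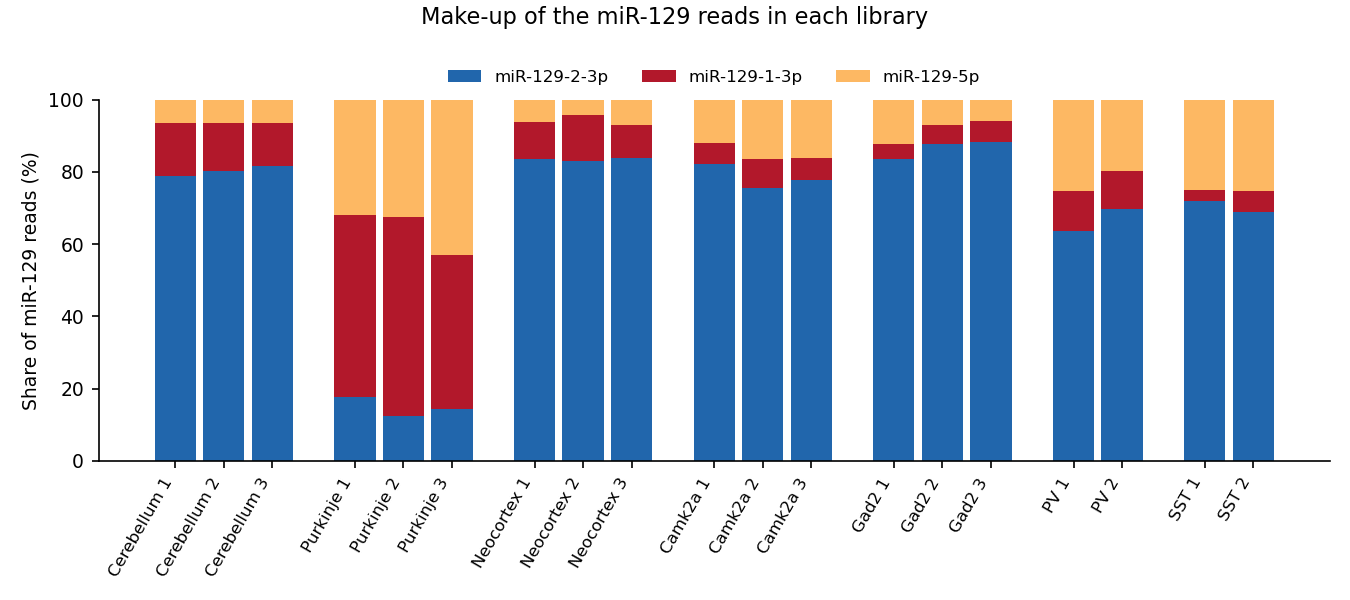
Share of miR-129-1-3p, miR-129-2-3p and miR-129-5p in the miR-129 reads of each library (stacked bars, percent from 0 to 100). miR-129-2-3p fills over 60% of every bar except the 3 Purkinje bars, where it averages 14.9%.

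miR-670, encoded 19846 bases from Mir129-2 in the same lincRNA, was chosen for comparison after the annotation was seen. Cerebellum libraries had 42.3, 28.5 and 33.4 RPM, and Purkinje libraries 2, 0 and 1 reads, which is under the limit of 3 reads. It was thus near absent in Purkinje, where miR-129-2-3p was also lowest. Neocortex libraries had 6.98, 11.7 and 11.0 RPM, Gad2 libraries 13.0, 10.9 and 14.7, and Camk2a libraries 1.16, 1.33 and 1.51. In Camk2a miR-670 was 6.84-fold lower than in Neocortex (limma adjusted p = 0.00119), where miR-129-2-3p differed by 0.48 (log2) in the other direction without passing. PV libraries had 1.21 and 2.45 RPM and SST libraries 8.60 and 2.44, each from 28 reads or fewer.

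Across the 19 libraries the log2 levels of the 3p arms had a Pearson correlation of 0.496, and of 0.882 over the 16 libraries without Purkinje. miR-129-5p had 0.687 with miR-129-2-3p and 0.398 with miR-129-1-3p. These describe libraries that fall into 7 groups, so that the points of a group are not independent, and both levels of a point come from the same library and share its depth and scaling. Among 221 microRNAs with a group mean of at least 100 RPM, those most like miR-129-2-3p over the 19 libraries were miR-135b (0.919), miR-582-5p (0.893) and miR-15a (0.892). miR-135b, a neuronal-list member, averaged 311 RPM in Cerebellum and 1.19 in Purkinje. Those most like miR-129-1-3p were miR-378 (0.842), let-7a (0.783) and miR-124* (0.770), and those most like miR-129-5p were miR-16 (0.824), miR-582-5p (0.760) and miR-195 (0.729). No name is shared between the lists of the 3p arms, and miR-582-5p is on those of miR-129-2-3p and miR-129-5p.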

How the data were processed

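The authors deposited 1 table of 528 microRNA names by 19 libraries of normalized signal. The deposited columns each summed to 10000000, 10 times the scale named in the file header, so the signal was divided by 10 to give RPM. Reads had been mapped with Bowtie to mm9, per the submitters' processing notes, with no version stated in the sources used here. In 19 of 19 libraries the values of all 528 names came out as whole reads within 0.0051 on the deposited scale, which gave the depth.

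Groups came from the sample titles. limma 3.58.1 (R 4.3.3, trend) was fitted to log2(deposited value + 1) as 1 model of 7 group means over the 522 names that reached 1 in 2 or more libraries, called at a Benjamini-Hochberg adjusted p under 0.05. The design named edgeR for counts and limma for normalized values. limma was also fitted to log2 ratios of reads (0.5 added) for 183 pairs of arms or sister hairpins that reached 20 reads together in 2 libraries and averaged 5 reads per name. Fold changes are on these scales. Alternatives were another pseudocount, other filters, TMM factors, edgeR 4.0.16, DESeq2 1.42.0, a replicate block and leaving out each library. The fits were tested on simulated data.

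The 3 members, up to 4 highest members of each cell-type list and the 3 microRNAs of highest Pearson correlation with each member are named. The members and lists were chosen with earlier results of these data known. Replicates of a group were compared for copies: the counts of the 17 pairs within groups gave chi-square values of 34.2 to 693 per degree of freedom.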

Additional observations from a re-analysis of the deposited data

Results flagged for a closer look

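The change from whole tissue to a cell class was compared between cerebellum and neocortex for each miR-129 arm and ratio, a contrast chosen after the data were seen. All 10 differences passed in limma with adjustment over all names or ratios. They set 1 cerebellar class against 1 neocortical class, whose strain and pooling also differ.

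The drop of miR-129-2-3p from Cerebellum to Purkinje exceeded its change from Neocortex to Gad2 by -6.84 ± 0.29 (SE, log2, adjusted p = 2.42e-13) and its change from Neocortex to Camk2a by -7.44 ± 0.29 (adjusted p = 4.85e-14). For miR-129-5p the differences were -2.39 against Gad2 (adjusted p = 1.06e-06) and -4.02 against Camk2a (adjusted p = 6.10e-10). For miR-129-1-3p they were -1.32 against Gad2 (adjusted p = 0.0102) and -2.49 against Camk2a (adjusted p = 2.53e-05). Of all 522 names, 45.8% and 47.3% differed in these contrasts.

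The ratio of miR-129-1-3p to miR-129-2-3p rose more from Cerebellum to Purkinje, by 5.52 against Gad2 (adjusted p = 1.17e-08) and 4.95 against Camk2a (adjusted p = 7.17e-08). The ratio of the 5p arm to the 3p arms also rose more, by 2.45 against Gad2 (adjusted p = 0.000762) and 1.47 against Camk2a (adjusted p = 0.0210). Leaving out Purkinje replicate 3 or Camk2a replicate 1 ended the last call (1.25, adjusted p = 0.0579, and 1.30, adjusted p = 0.0655). Of the 183 ratios, 16.4% and 23% differed.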

How the results depend on the processing

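Every called difference of a miR-129 arm or ratio in Cerebellum against Neocortex and Purkinje against Cerebellum, and of miR-129-5p in Camk2a against Neocortex, kept its direction and its side of the threshold under all alternatives run. TMM factors moved the median difference of all names from -0.40 to -0.17 in Cerebellum against Neocortex, -0.25 to -0.04 in Camk2a against Neocortex and -0.31 to -0.16 in Purkinje against Gad2. By edgeR the median in Cerebellum against Neocortex was -0.41, and by DESeq2 -0.05. Scaling mattered between PV and SST: miR-129-2-3p became 0.36 with TMM factors, 0.20 by edgeR and 0.26 by DESeq2, and miR-129-5p 0.27, 0.11 and 0.17. In Camk2a against Neocortex, miR-129-1-3p became 0.094 with TMM factors, 0.13 by edgeR and 0.061 by DESeq2, and miR-129-2-3p passed at 0.70, 0.77 and 0.71. In Gad2 against Neocortex, miR-129-2-3p became 0.0056 with TMM factors, and in Gad2 against SST miR-129-5p became 0.0095. In Purkinje against Gad2, miR-129-1-3p passed at 0.60 by edgeR and 0.67 by DESeq2. The 5p to 3p ratio in Gad2 against Camk2a passed with a pseudocount of 5 reads (-0.98) or a mean of 50 reads (-0.99). The cause of these changes was not tested.

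Leaving out single libraries moved these differences over the following ranges. Neocortex replicate 2 turned miR-129-1-3p in Camk2a against Neocortex (-0.40 to 0.16) and miR-129-2-3p in Gad2 against Neocortex (-0.37 to 0.035), and made miR-129-2-3p in Camk2a against Neocortex pass (0.23 to 0.64). Without Neocortex replicate 3, miR-129-5p in Gad2 against Neocortex passed (0.069 to 0.55). Calls were lost for miR-129-1-3p in PV against SST (0.77 to 1.49), miR-129-2-3p in Gad2 against Camk2a (-0.70 to -0.48) and the 3p ratio in Gad2 against Neocortex (-1.29 to -1.05) and PV against SST (0.93 to 1.89). Uncalled values that changed sign were the 5p to 3p ratio in Cerebellum against Neocortex (-0.011 to 0.36), PV against SST (-0.46 to 0.019) and Cerebellum against Gad2 (-0.58 to 0.0080), the 3p ratio in Cerebellum against PV (-0.069 to 0.13), Camk2a against SST (-0.011 to 0.95) and Gad2 against SST (-0.58 to 0.38), and miR-129-1-3p in Gad2 against PV (-0.040 to 0.38). These fits have fewer libraries.

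With the replicate number as a block, no call on a member or ratio changed, and Purkinje against Cerebellum gave -6.97 for miR-129-2-3p and 4.34 for the 3p ratio. Same-numbered libraries of different groups had a median correlation of deviations of 0.016 (52 pairs, 7 over 0.1). Differently numbered ones had -0.012 (102 pairs, 12 over 0.1). Deviations within groups of 2 or 3 libraries are too few to exclude a shared batch. Depth limits miR-670, with 0 to 185 reads, whose call in Cerebellum against Neocortex (1.82) was lost without Cerebellum replicate 1 (1.67) or Neocortex replicate 1 (1.58), and miR-129-1-3p in SST, and groups of 2 libraries limit PV and SST.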
